A study of Mus musculus with 6 samples.

Results

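The aminoacyl-tRNA synthetases were examined in HK-2 cells with and without overexpression of USAG-1, a secreted antagonist of BMP and Wnt signalling. HK-2 is an immortalized human line derived from the proximal tubule. The 35 genes were chosen by name, 19 for cytosolic and 16 for mitochondrial enzymes. All 35 were found by symbol among the 39234 genes of the deposited table, and all 35 passed the filter on low counts, as did 18188 genes of the table in all. RNA, selected with oligo(dT) by the labels' account, was sequenced from 6 cultures, 3 labelled as control and 3 labelled as USAG-1 overexpression. All 6 carry the genotype label WT, and the labels do not say what the control cultures received. In the study's methods, overexpression in cells was by transient transfection of plasmids, and the line was not authenticated by STR typing. Mouse is given as organism in the labels, but the line and the gene identifiers are human. Nothing in the labels ties the 3 libraries of a group to separate experiments, so p-values measure the spread between these cultures, which may be technical.

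Aminoacyl-tRNA synthetases attach each amino acid to its transfer RNA, the step that fixes the genetic code. Human cells use separate sets of nuclear genes for the cytosol and for mitochondria, although GARS1 and KARS1 each encode the enzyme for both. The enzymes fall into class I and class II by the fold of the catalytic domain. Several cytosolic enzymes are held together with scaffold proteins in a multisynthetase complex, among them the bifunctional glutamyl-prolyl enzyme EPRS1. Uncharged tRNA activates the kinase GCN2, which leads to translation of the transcription factor ATF4, and many cytosolic synthetase genes are known targets of ATF4. WARS1 is in addition a known interferon-gamma target. In the kidney, the proximal tubule is rich in mitochondria, which depend on the mitochondrial enzymes to make their own proteins.

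The libraries held 41236194 to 48699471 reads counted on genes. At these depths 3 counts correspond to 0.0616 to 0.0728 CPM, the count scaled by library size. The members had between 207 and 25374 counts in a library. SOSTDC1, which encodes USAG-1, had 79, 80 and 60 counts in control cultures and 5072, 3907 and 4438 counts in overexpressing cultures. Control replicate 3 stood apart from the other control libraries. Its counts differed from theirs by a chi-square per degree of freedom of 47.0 and 48.1, against 6.79 to 8.70 for the other pairs within a group, and results that rest on it are given with and without it. Of 9 kidney epithelium markers, 8 had counts in every library and 7 passed the filter. Of these 7, 1 was higher and 1 lower in overexpressing cultures at an adjusted p below 0.05 (edgeR). That is 28.6%, beside 15.9% of all genes tested. Among the 9, PAX8, KRT8 and KRT18 had at least 11753 counts in every library. The proximal tubule endocytic receptor LRP2 had no count in any library and its partner CUBN had at most 15. Of 12 proximal tubule transport markers, 9 were in the table and 4 passed the filter. Their summed level was 90.2 to 120 CPM in control and 141 to 169 CPM in overexpressing libraries, nearly all of it GGT1, a brush border enzyme, which rose from a mean of 105 to 153 CPM (adjusted p = 0.0208). Of 14 T and NK cell markers, 13 were lower in overexpressing cultures at an adjusted p below 0.05 (edgeR), beside 6.91% of all genes tested. The other did not pass but was higher in all overexpressing libraries, with a log2 fold change of 0.27. The summed level of the 14 markers was 108 to 124 CPM in control and 28.9 to 35.9 CPM in overexpressing libraries. Of the 14, 11 had counts in all 6 libraries and none was at 0 throughout. The part of these markers in the results below was not tested.

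Cytosolic synthetase transcripts were higher in overexpressing cultures for 7 of 19 genes and lower for none (adjusted p below 0.05 by the quasi-likelihood test of edgeR, with Benjamini-Hochberg adjustment across all tested genes). No cytosolic gene was lower at an unadjusted p under 0.05, with DESeq2 or with limma-voom either, and both tools called 7 higher. AARS1, NARS1, EPRS1, FARSB, VARS1, GARS1 and TARS1 rose, by 20.3% to 47.5%. Among all genes tested, 15.9% were called, 8.95% higher and 6.91% lower. The median log2 fold change (log2FC, overexpression against control) of the 19 genes was 0.10, against -0.02 for all genes tested. The log2FC was above 0 in 15 of the 19, and in 16 with library sizes alone as the scaling. The control and overexpressing libraries did not overlap in 11 of the 19 genes, 10 of them higher, where 37.6% of all genes tested did not overlap and 19.4% were higher without overlap. Summed over the 19 genes, the level was 3474 ± 135 CPM in control cultures and 3931 ± 32.6 CPM in overexpressing cultures (SD, n = 3 each). As a share of all counts, without further scaling, this was 0.345 ± 0.00249% and 0.395 ± 0.000504% (SD, n = 3 each).

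**Figure D1:**
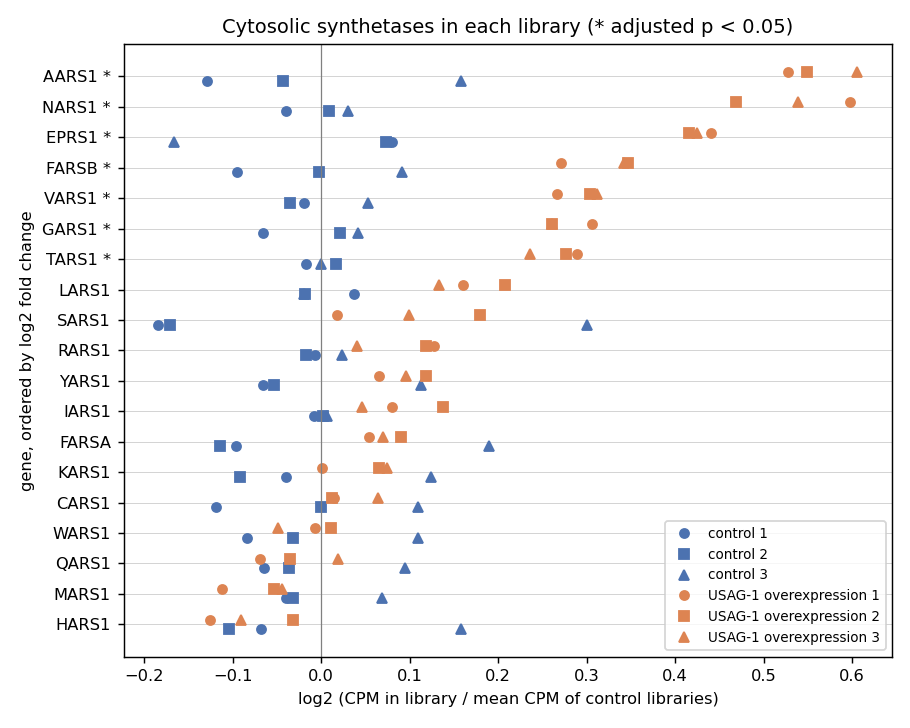
Log2 ratio of the CPM of each cytosolic synthetase gene in a library to the mean CPM of the 3 control libraries, with 1 point for each of the 6 libraries and genes ordered by log2FC. The overexpressing libraries lie to the right of every control library for the 7 genes marked with an asterisk, and most genes have their highest control value in replicate 3.

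The largest rise was in AARS1 (ENSG00000090861; hg38, chromosome 16, 70251983 to 70289707), the alanyl-tRNA synthetase. It had 126, 134 and 154 CPM in the control libraries and 199, 202 and 210 CPM in the overexpressing libraries. The groups were well apart, with control replicate 3 nearest to the overexpressing libraries. The log2FC was 0.56 (SE, the standard error, 0.08, adjusted p = 0.0032), and it was 0.65 without control replicate 3. NARS1 (ENSG00000134440; chromosome 18, 57600656 to 57621836), the asparaginyl-tRNA synthetase, had 173, 179 and 181 CPM in control cultures and 269, 246 and 258 CPM in overexpressing cultures. Its control libraries were tightly grouped and far below the others. Its log2FC of 0.54 (SE 0.06, adjusted p = 0.00109) had the smallest adjusted p of the 35 genes. EPRS1 (ENSG00000136628; chromosome 1, 219968600 to 220046530) charges tRNA with glutamate and with proline. Its level was 270.5, 269 and 228 CPM in control cultures and 347, 341 and 344 CPM in overexpressing cultures. Here control replicate 3 was the lowest library, unlike in AARS1 and NARS1, where it was the highest control library. The log2FC was 0.43 (SE 0.07, adjusted p = 0.00737), and 0.36 without control replicate 3.

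The other 4 genes that rose did so by a smaller margin. VARS1 (ENSG00000204394; chromosome 6, 31777518 to 31795752), the valyl-tRNA synthetase, had 232, 229 and 244 CPM in control cultures and 283, 290.2 and 292 CPM in overexpressing cultures, a log2FC of 0.29 (SE 0.05, adjusted p = 0.00836). FARSB (ENSG00000116120; chromosome 2, 222566899 to 222656092) encodes the beta subunit of phenylalanyl-tRNA synthetase. It had 51.2, 54.6 and 58.2 CPM in control cultures and 65.9, 69.5 and 69.2 CPM in overexpressing cultures, a log2FC of 0.32 (SE 0.07, adjusted p = 0.0162). FARSA, the alpha subunit of the same enzyme, had 97.4, 96.2 and 119 CPM in control cultures and 108, 111 and 109 CPM in overexpressing cultures, so that only control replicate 3 lay above the overexpressing libraries. FARSA did not pass the test with all libraries (log2FC 0.07, adjusted p = 0.63) and passed it without control replicate 3 (0.18, adjusted p = 0.00827).

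GARS1 (ENSG00000106105; chromosome 7, 30580533 to 30634033), the glycyl-tRNA synthetase of cytosol and mitochondria, had 194, 206 and 209 CPM in control cultures and 251, 243 and 243 CPM in overexpressing cultures. The libraries did not overlap, and the log2FC was 0.28 (SE 0.05, adjusted p = 0.0126). Its span overlaps the antisense gene GARS1-DT, which had fewer counts and whose log2FC was -0.32 (adjusted p = 0.368). TARS1 (ENSG00000113407; chromosome 5, 33440696 to 33468091), the threonyl-tRNA synthetase, had 204, 209 and 207 CPM in control cultures and 252, 250.3 and 243 CPM in overexpressing cultures. It had among the narrowest spreads in control cultures, and its log2FC was 0.27 (SE 0.05, adjusted p = 0.0101). KARS1, the lysyl-tRNA synthetase and the other gene that serves both compartments, had 260, 251 and 292 CPM in control cultures and 268, 280.2 and 282 CPM in overexpressing cultures. Its groups overlapped through control replicate 3, and its log2FC was 0.05 (adjusted p = 0.688).

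Several of these calls were lost when a library was left out. AARS1, NARS1 and EPRS1 were called with any library left out, whereas FARSB lost its call without any library other than control replicate 3, with adjusted p from 0.0543 to 0.0816. GARS1 lost its call without USAG-1 overexpression replicate 1, 2 or 3 (adjusted p = 0.0719, 0.0584 and 0.057), TARS1 without replicate 1 or 2 (0.0627 and 0.0575), and VARS1 without replicate 2 or 3 (0.0509 and 0.051). All of their log2FCs stayed between 0.25 and 0.37. Over these fits 3 to 6 cytosolic genes were called. The share of all genes called fell too, to 6.92%, 5.98% and 7.09% without USAG-1 overexpression replicate 1, 2 and 3, and to 10.2% and 8.74% without control replicate 1 and 2. With another scaling, filter or tool, or with a replicate block, 7 cytosolic genes and 1 mitochondrial gene were called in each fit. The share of all genes called was then 15.7% with the size factors of DESeq2, 16.1% with library sizes alone, 16% with mitochondrially encoded genes left out of the scaling, 20.3% with DESeq2, 15.9% with limma-voom, 6.26% without a filter, 19% with at least 10 counts in every library and 13.1% with a replicate block. At an adjusted p under 0.01 it was 6.07%, and 4 cytosolic genes passed.

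Without control replicate 3, 12 of the 19 cytosolic genes were called, all higher, where 27% of all genes tested were called and 15.8% were higher. The median log2FC of the 19 genes was then 0.16, and 18 of the 19 were above 0. Besides FARSA, the genes that then passed were SARS1, the seryl enzyme that also charges the selenocysteine tRNA (0.28, adjusted p = 0.0033), the tyrosyl enzyme YARS1 (0.16, adjusted p = 0.00924), the leucyl enzyme LARS1 (0.16, adjusted p = 0.017) and KARS1 (0.12, adjusted p = 0.0466). SARS1 showed the difference most clearly. It had 131 and 132 CPM in control replicates 1 and 2, 183 CPM in control replicate 3, and 151, 168 and 159 CPM in overexpressing cultures. Control replicate 3 was thus the highest of all 6 libraries for SARS1. In that library 17 of the 19 cytosolic genes lay above their control mean, against 2 in control replicate 1 and 6 in control replicate 2. These counts depend on the scaling, since the TMM factor was 0.957 in control replicate 3 and 1.013 and 1.014 in replicates 1 and 2. As an unscaled share of all counts, the 19 genes took 0.342%, 0.346% and 0.347% in control replicates 1, 2 and 3. Of the 16 mitochondrial genes, 11 lay above their control mean in control replicate 3, against 6 and 5 in replicates 1 and 2.

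**Figure D2:**
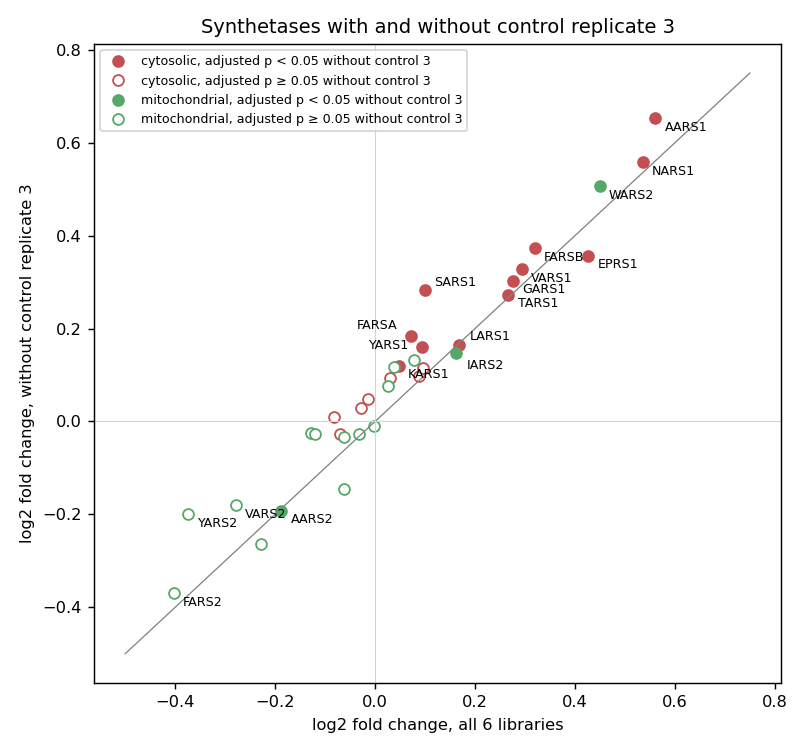
Log2 fold change of each of the 35 synthetase genes with all 6 libraries (horizontal axis) and without control replicate 3 (vertical axis), with the line of equal values. Cytosolic genes lie mostly on or above the line, SARS1 farthest above it (0.10 against 0.28), and EPRS1 lies below it (0.43 against 0.36).

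The 12 cytosolic genes that did not pass with all libraries had log2FCs from -0.08 (HARS1) to 0.17 (LARS1). LARS1 (122, 117 and 117 CPM in control cultures; 133, 137 and 130.2 CPM in overexpressing cultures) came nearest, with an adjusted p of 0.0737. IARS1 and RARS1, the isoleucyl and arginyl enzymes, were also higher in all overexpressing libraries, with log2FCs of 0.09 (adjusted p = 0.279) and 0.10 (adjusted p = 0.285). MARS1, the methionyl enzyme, was lower in all of them (234 to 245 CPM against 246 to 265 CPM), with a log2FC of -0.07 (adjusted p = 0.45). The interferon-responsive tryptophanyl gene WARS1 had 202, 209.6 and 231 CPM in control cultures and 213, 216 and 207 CPM in overexpressing cultures, so the groups overlapped. Its log2FC was -0.01 with a 95% interval from -0.16 to 0.13, which leaves out a rise of the size of that in AARS1 or NARS1. For HARS1, QARS1 and CARS1, the histidyl, glutaminyl and cysteinyl enzymes, the intervals were -0.27 to 0.10, -0.17 to 0.12 and -0.13 to 0.19.

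The cytosolic genes can be grouped by the structure and known regulation of the enzymes, and the counts in each group stand beside 15.9% called among all genes tested, or 27% without control replicate 3. Of 9 class II genes, 5 rose (AARS1, NARS1, FARSB, GARS1 and TARS1), which is 55.6%, with a median log2FC of 0.27. Of 9 class I genes, VARS1 alone rose, which is 11.1%, and the median was 0.09. EPRS1, which joins an enzyme of each class, was counted with neither. Without control replicate 3 the counts were 8 of 9 in class II and 3 of 9 in class I. Of the 7 genes whose enzymes sit in the multisynthetase complex, EPRS1 alone rose (14.3%), against 6 of the 12 outside it (50%), and the medians were 0.09 and 0.18. Without control replicate 3 these counts were 3 of 7 and 9 of 12. Of 13 genes known as ATF4 targets, 6 rose (46.2%) with a median of 0.17, and FARSB alone rose among the other 6 (16.7%), whose median was 0.06. Without control replicate 3 these counts were 9 of 13 and 3 of 6. These subsets overlap and were chosen with earlier results known, so they are given without a test, and differences between them were not tested.

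Of the 16 mitochondrial synthetase genes, only WARS2 was called with all libraries, and it was higher. That single gene is 6.25% of the 16, beside 15.9% among all genes tested. Without control replicate 3, IARS2 (higher) and AARS2 (lower) were called as well, which makes 18.8% of the 16 beside 27% of all genes. The median log2FC was -0.06, with 5 genes above 0 and 11 below. The summed level was 583 ± 14.1 CPM in control cultures and 587 ± 3.05 CPM in overexpressing cultures (SD, n = 3 each), and the groups overlapped. At an adjusted p under 0.1, where 23.2% of all genes tested were called, 5 of the 16 passed, with WARS2 and IARS2 higher and AARS2, FARS2 and YARS2 lower, and 8 of the 19 cytosolic genes passed, all higher.

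**Figure D3:**
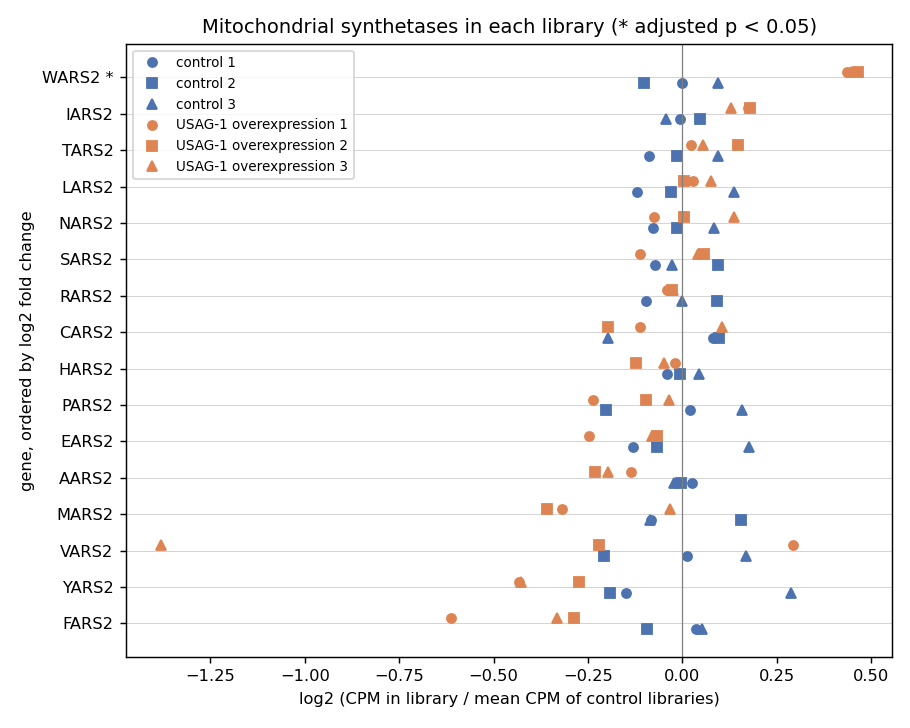
Log2 ratio of the CPM of each mitochondrial synthetase gene in a library to the mean CPM of the 3 control libraries, with 1 point for each of the 6 libraries and genes ordered by log2FC. WARS2 is the only gene marked as called, and VARS2 has the widest spread among the overexpressing libraries (9.04 to 28.9 CPM).

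WARS2 (ENSG00000116874; chromosome 1, 119031216 to 119140653), the mitochondrial tryptophanyl-tRNA synthetase, had 25.3, 23.6 and 27.0 CPM in control cultures and 34.2, 34.9 and 34.5 CPM in overexpressing cultures. The overexpressing libraries were within 1 CPM of each other and all above the control libraries. The log2FC was 0.45 (SE 0.07, adjusted p = 0.00572), and it was called under each of the 14 alternatives that change the fit or the libraries. The gene WARS2-AS1 lies head to head with it on the other strand, with 258 shared bases. WARS2-AS1 rose as well, with 33.7, 31.9 and 34.1 CPM in control cultures and 47.7, 47.2 and 47.4 CPM in overexpressing cultures (log2FC 0.51, adjusted p = 0.00161). The libraries were prepared with a strand-specific protocol, but the strand setting of the counting is not given, so reads in the shared bases cannot be assigned with certainty.

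IARS2 (ENSG00000067704), the isoleucyl enzyme, had 162, 168 and 158 CPM in control cultures and 184, 184 and 178 CPM in overexpressing cultures. The groups did not overlap, but the adjusted p was 0.0784 (log2FC 0.16), and 0.0171 without control replicate 3. AARS2 (ENSG00000124608), the alanyl enzyme, was lower in all overexpressing libraries, with 44.7, 43.8 and 43.3 CPM in control cultures and 40.0, 37.4 and 38.3 CPM in overexpressing cultures. Its log2FC was -0.19 (adjusted p = 0.0719), and -0.19 without control replicate 3, where it passed (adjusted p = 0.0268). FARS2 (ENSG00000145982), the mitochondrial phenylalanyl enzyme, had 8.91, 8.15 and 9.005 CPM in control cultures and 5.68, 7.12 and 6.905 CPM in overexpressing cultures. It was lower in each of them, with the lowest log2FC of the 35 genes (-0.40, SE 0.14), and did not pass (adjusted p = 0.0821).

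YARS2 (ENSG00000139131), the tyrosyl enzyme, had 23.8, 23.1 and 32.2 CPM in control cultures and 19.5, 21.8 and 19.6 CPM in overexpressing cultures. Control replicate 3 was again far from its group, and without it the log2FC of -0.37 (adjusted p = 0.0977) became -0.20 (adjusted p = 0.0919). The span of YARS2 shares 18161 bases with DNM1L, a mitochondrial fission gene on the other strand with more counts, which in control replicate 3 had its lowest level (82.0 CPM, against 102 to 117 CPM elsewhere). MARS2, the methionyl enzyme, had 11.6, 13.7 and 11.6 CPM in control cultures and 9.89, 9.62 and 12.05 CPM in overexpressing cultures. The groups overlapped, and its log2FC was -0.23 (adjusted p = 0.281). With VARS2 set aside, the other 9 mitochondrial genes had log2FCs from -0.13 (EARS2) to 0.08 (TARS2), and the groups overlapped in all 9.

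VARS2, the mitochondrial valyl gene, was chosen for description after its values were seen. Its counts were 991, 1007 and 1129 in control cultures and 1326, 883 and 390 in overexpressing cultures, the widest spread of the 35 genes relative to the mean. The whole span of VARS2 lies within another entry of the same strand in the table, ENSG00000288473 (chromosome 6, 30908242 to 30926459). That entry had 1591, 1979 and 826 counts in control cultures and 767, 952 and 2225 counts in overexpressing cultures. Where VARS2 was highest the other entry was lowest, and the reverse. VARS2 took between 14.9% and 63.35% of the counts of the pair, both extremes within the overexpressing group. The summed counts ranged from 1835 to 2986, and the groups overlapped. The log2FC was -0.28 (SE 0.34, adjusted p = 0.637) for VARS2 and -0.18 (SE 0.16, adjusted p = 0.485) for the sum. How reads shared by the 2 entries were assigned is not given in the sources used here, so the level of VARS2 in a library is uncertain.

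**Figure D4:**
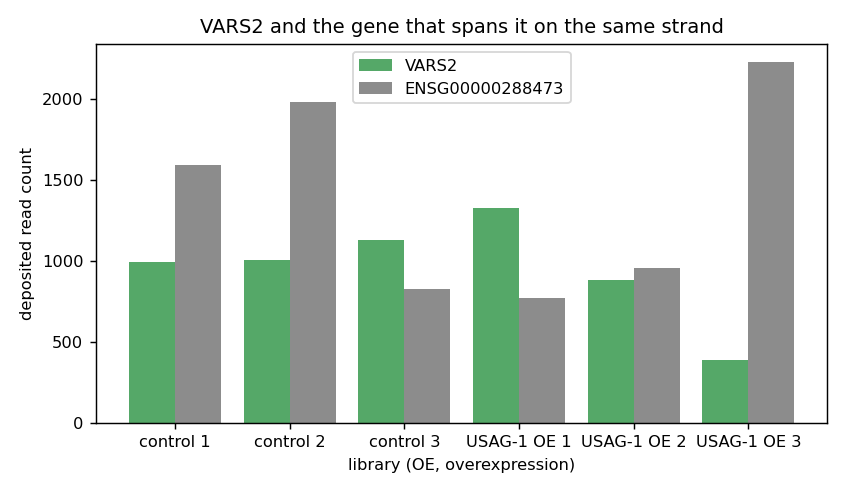
Deposited read counts of VARS2 and of ENSG00000288473, the entry that spans it on the same strand, in each of the 6 libraries. VARS2 ranges from 390 to 1326 counts and is highest in USAG-1 overexpression replicate 1, where the other entry is lowest (767 counts).

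Setting each mitochondrial gene beside the cytosolic gene for the same amino acid gave 17 pairs, since EPRS1 stands beside EARS2 and PARS2, and FARS2 beside FARSA and FARSB. The log2FC of the cytosolic gene was above that of its mitochondrial partner in 14 of the 17 pairs, and the median difference was 0.19. The log2 ratio of cytosolic to mitochondrial CPM, formed within each library, was higher in every overexpressing library than in every control library in 8 pairs, lower in 1 and overlapping in 8. EPRS1 and FARS2 each stand in more than 1 of the 8 higher pairs, so these are not separate observations. No share over other pairs of genes was formed. Among single genes, 37.6% of all tested did not overlap. The exact permutation test of 3 libraries against 3 cannot go below p = 0.1, so the ratios are given as values.

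For alanine the ratio of AARS1 to AARS2 was 1.5, 1.62 and 1.83 on the log2 scale in control cultures and 2.32, 2.44 and 2.46 in overexpressing cultures, the widest separation of the 17 pairs by log2FC (0.56 against -0.19). For asparagine the ratio of NARS1 to NARS2 was 3.48, 3.46 and 3.38 in control cultures and 4.11, 3.90 and 3.84 in overexpressing cultures. NARS2 itself had a log2FC of 0.03 (95% interval -0.19 to 0.24). Tryptophan was the pair that moved the other way. The log2 ratio of WARS1 to WARS2 was 3.00, 3.15 and 3.10 in control cultures and 2.64, 2.63 and 2.59 in overexpressing cultures. In the histidine pair, HARS1 and HARS2 lie head to head with 108 shared bases, and their log2FCs were -0.08 and -0.06.

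**Figure D5:**
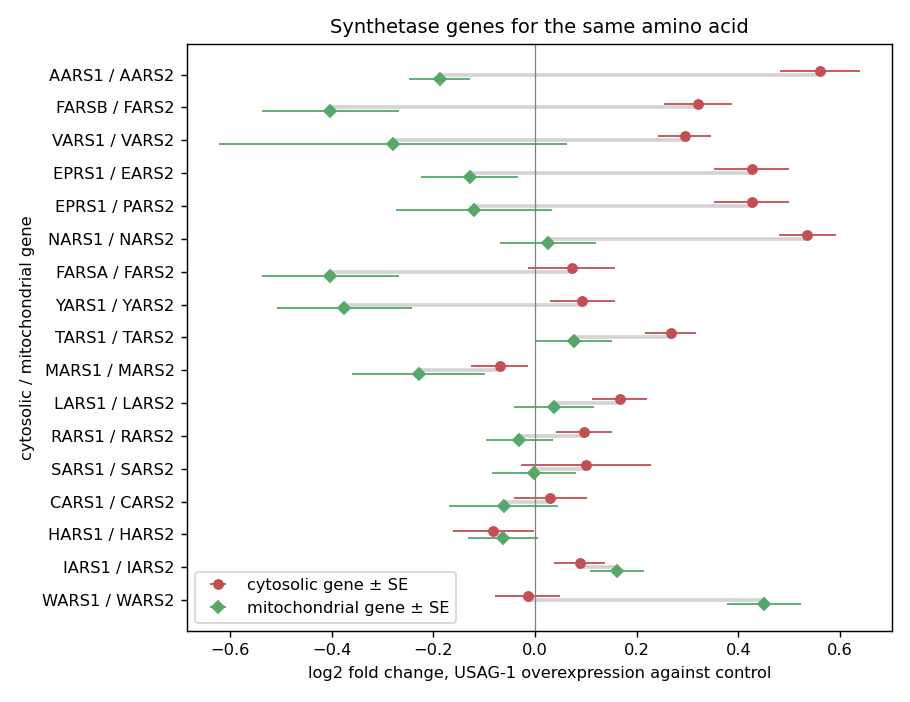
Log2 fold change (USAG-1 overexpression against control, with standard error) of each cytosolic synthetase gene and of the mitochondrial gene for the same amino acid, ordered by the difference. The cytosolic value lies to the right in 14 of the 17 pairs, with AARS1 and AARS2 farthest apart and WARS1 and WARS2 in the opposite order.

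The partners of the synthetases were mostly not called. Counts in the lists that follow stand beside shares among all genes tested of 15.9% with edgeR and with limma-voom, 20.3% with DESeq2, and 27% without control replicate 3 (15.8% higher and 11.2% lower). None of the 3 scaffold proteins of the multisynthetase complex passed, with AIMP1 at 0.16 (adjusted p = 0.255) and AIMP2 at -0.16 (adjusted p = 0.408) on the log2 scale. None of 5 genes for proofreading and for release of mischarged or peptidyl-tRNA passed, although all 5 log2FCs were below 0, with DTD1 at -0.24 (adjusted p = 0.161) and DTD2 at -0.29 (adjusted p = 0.241). Of 6 genes for selenocysteinyl-tRNA and its decoding none passed, with SECISBP2 at -0.41 (adjusted p = 0.0597) and EEFSEC at -0.36 (adjusted p = 0.0877). At an unadjusted p under 0.05 the counts in these 3 lists were 0, 1 and 3. DESeq2 called 0, 0 and 1 and limma-voom none, and 0, 0 and 1 were called without control replicate 3.

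Of 16 genes for the end processing, splicing and export of tRNA none passed, with POP1 at -0.24 (adjusted p = 0.0869) and the tRNA exporter XPOT at 0.15 (adjusted p = 0.089). Of 12 genes for processing and modification of mitochondrial tRNA none passed, with MTO1 at 0.25 (adjusted p = 0.0801) and CDK5RAP1 at -0.13 (adjusted p = 0.241). In these 2 lists 4 and 1 genes had an unadjusted p under 0.05, neither DESeq2 nor limma-voom called any, and without control replicate 3 the counts called were 4 and 2. RNA polymerase III transcribes the cytosolic tRNA genes. Among 21 genes of the polymerase and its factors, GTF3C1, one of the factors, rose (log2FC 0.36, adjusted p = 0.00516). The others did not pass, GTF3C6 with 0.26 (adjusted p = 0.0524). The median of the 21 was 0.07, and without control replicate 3 it was 0.18 with 9 genes called, all higher, where 27% of all genes were called. With all libraries DESeq2 called 5 of the 21, beside 20.3% of all genes, and limma-voom 2.

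Delivery factors went in different directions. The list for delivery of charged tRNA to the cytosolic ribosome had 8 genes, both carriers and exchange factors. EIF2S2, the beta subunit of the initiator tRNA carrier eIF2 (0.36, adjusted p = 0.00516), and the elongation factor EEF1A2 (0.53, adjusted p = 0.00871) rose. EEF1B2, an exchange factor for the elongation factor, fell by 0.31 (adjusted p = 0.0363). That makes 3 of 8 called, beside 15.9% of all genes. Of 6 mitochondrial delivery and release factors none passed, with TSFM at -0.43 (adjusted p = 0.125) and GFM1 at 0.13 (adjusted p = 0.127). Here 2 had an unadjusted p under 0.05, DESeq2 called 1, limma-voom 0, and 1 was called without control replicate 3. Mitochondria charge their glutamine tRNA indirectly, through a glutamyl-tRNA amidotransferase. In the list of 6 genes for this step, formylation and initiation, QRSL1, the catalytic subunit of that enzyme, rose from 25.1 ± 0.632 to 32.8 ± 0.476 CPM (SD, n = 3 each; log2FC 0.39, adjusted p = 0.00626), and the initiation factor MTIF2 rose by 0.35 (adjusted p = 0.00997). The other subunits GATB and GATC were at -0.24 (adjusted p = 0.296) and -0.27 (adjusted p = 0.0626). Of these 6 genes, 3 had an unadjusted p under 0.05, 2 higher and 1 lower. DESeq2 called 3 and limma-voom 2, and without control replicate 3 the count was 3, 2 higher and 1 lower.

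The list of eIF2-alpha kinases and the ATF4 programme had 13 of 32 genes called, 10 higher and 3 lower, with a median log2FC of 0.11, beside 15.9% called among all genes tested. Without control replicate 3 it was 20, with 15 higher and 5 lower, where the share of all genes called was also larger, at 27%, with 15.8% higher and 11.2% lower. SLC7A11, the cystine transporter, and the stress factor ATF3 had the smallest p, with log2FCs of 1.29 (adjusted p = 4.36e-04) and 1.005 (adjusted p = 0.00195). The following genes of this list were chosen after their values were seen. ATF4 itself had 379, 392 and 418 CPM in control cultures and 451, 469 and 479 CPM in overexpressing cultures, a log2FC of 0.23 (adjusted p = 0.0296). EIF2AK4, which encodes GCN2, rose by 0.31 (adjusted p = 0.0217). ASNS, which makes the asparagine that NARS1 uses, fell by 0.44 (adjusted p = 0.0358), with 24.8, 29.3 and 28.9 CPM in control cultures and 22.6, 17.4 and 21.1 CPM in overexpressing cultures. PHGDH and SLC7A5 fell as well, by 0.51 (adjusted p = 0.00519) and 0.45 (adjusted p = 0.00941). TRIB3, CHAC1, DDIT3 and ATF5 rose, with log2FCs of 0.70 (adjusted p = 0.00257), 1.05 (0.00922), 0.61 (0.0213) and 0.31 (0.0153). Of the genes called in this list, 10 thus rose, ATF4 and EIF2AK4 among them, and the 3 that fell were ASNS, PHGDH and SLC7A5. These are transcript levels, and the activity of ATF4 and of GCN2 was not measured. The span of DDIT3 shares 982 bases with the synthetase gene MARS1, which lies on the other strand and had more counts. Reads in the shared bases cannot be assigned with certainty, since the strand setting of the counting is not given.

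All 22 mitochondrially encoded tRNA genes were lower in overexpressing cultures, with log2FCs from -3.61 to -1.57 and a median of -2.59, whereas the 16 mitochondrial synthetases had a median of -0.06. MT-TN, the asparagine tRNA, fell by 1.82 (70.2 ± 3.18 to 19.9 ± 0.245 CPM, SD, n = 3 each), and MT-TV, the valine tRNA, fell by 3.29. MT-TW, the tryptophan tRNA that WARS2 charges, fell by 3.03, from 4.20 ± 0.988 to 0.514 ± 0.0705 CPM (SD, n = 3 each). Mitochondrially encoded genes together took 4.80% to 5.59% of the counts in control libraries and 1.5% to 1.55% in overexpressing libraries. The labels describe selection with oligo(dT) and the series text removal of ribosomal RNA. Counts per gene do not tell reads of these short tRNA genes apart from reads of longer mitochondrial transcripts, and the level of mature or charged tRNA was not measured.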

How the data were processed

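The authors deposited whole-number counts per gene for all 6 libraries in 1 table, not normalized, under a name that speaks of FPKM. The submitters' processing notes name cutadapt 1.9, FastQC and hg38. The aligner, the counting tool, its strand setting and the annotation release are not given in the sources used here. The labels describe oligo(dT) selection, strand-specific paired-end libraries, whereas the series text names removal of ribosomal RNA and another sequencer. Per the labels, groups and replicate numbers come from the sample titles.

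The whole table was analysed with edgeR 4.0.16 in R 4.3.3 (filterByExpr, TMM scaling, quasi-likelihood test). Benjamini-Hochberg adjustment covered the 18188 genes tested, which held 99.9% of the counts. A gene was called below an adjusted p of 0.05, whatever its size of change. Standard errors (SE) were derived from the log2 estimate and the F statistic, and 95% intervals use the test's degrees of freedom. CPM are on the TMM scale. Gene lengths were not used, so larger or smaller counts of different genes do not rank their transcript levels. Ratios of CPM between genes were compared only across libraries. DESeq2 1.42.0, the tool in the study's methods, and limma-voom 3.58.1 served as alternatives. The other alternatives were DESeq2's size factors, library sizes alone, mitochondrially encoded genes left out of the scaling, other filters and thresholds, a replicate block, and each library left out.

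The members and the lists of genes were chosen with earlier results of these data known, and lists and markers were typed from general knowledge. Of the members, those called, the next smallest p up to 6 in each compartment, and WARS1, GARS1 and KARS1 are described by library, and from each list of other genes the 2 with the smallest p are named. Other genes were chosen after their values were seen. The interferon-gamma list is not reported here. No set test was made. The code was tested on simulated data, where 9.47% of the calls were false. Of genes simulated with an absolute log2FC of 0.3, 9.09% were recovered, against 23.5% at 0.5 and 68.9% at 1. Most changes of the size reported for the synthetases would thus have been missed in that simulation.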

Additional observations from a re-analysis of the deposited data

How the results depend on the processing

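Each synthetase was refitted under 14 alternatives. Of the 8 called genes, AARS1, NARS1, EPRS1 and WARS2 were called under all 14, and the calls that FARSB, GARS1, TARS1 and VARS1 lost were all with a library left out. With a library left out, the number of cytosolic genes called ranged from 3 to 12 and that of mitochondrial genes from 1 to 3, the highest both without control replicate 3. The median log2 fold change ranged from 0.0838 to 0.16 for the cytosolic genes and from -0.08 to -0.03 for the mitochondrial genes. At an adjusted p under 0.01, where 6.07% of all genes were called, 4 cytosolic genes passed and WARS2 did, and at 0.1, 5 mitochondrial genes passed. Every other scaling, filter and tool, the replicate block included, called 7 cytosolic genes and 1 mitochondrial gene. With DESeq2's Wald test, 20.3% of all genes were called.

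The sign changed in 10 genes, none of them called. With library sizes alone WARS1 was at 0.0032 and SARS2 at 0.013, and SARS2 was at 0.00036 with mitochondrially encoded genes left out. With single libraries left out, the values ranged from -0.024 to 0.094 for CARS1, from -0.13 to 0.0101 for HARS1, from -0.058 to 0.0281 for QARS1, from -0.0537 to 0.0492 for WARS1, from -0.15 to 0.00402 for CARS2, from -0.0175 to 0.12 for LARS2, from -0.031 to 0.0761 for NARS2, from -0.0758 to 0.0165 for RARS2, from -0.0362 to 0.0511 for SARS2 and from -0.68 to 0.0645 for VARS2. The sum of VARS2 with the entry that spans it was added after the data were seen. No sign of pairing by replicate number was seen. The deviations of same-numbered libraries from their group means correlated at 0.07, -0.05 and 0.04 (Pearson, across genes), within the range of -0.14 to 0.11 for unlike numbers. So few libraries cannot exclude pairing. With 3 libraries a group, the 95% intervals of the genes that were not called bound the changes that could have been missed, and depth was not varied.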
